A study of Mus musculus with 12 samples.

Results

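The comparison described here set cortical astrocytes of cKO;S/+ mice, in which glutamatergic neurons lack NMNAT2, against those of ctrl-2 mice, which keep 1 intact Nmnat2 allele. It was defined by the genotype labels and took in 8 of the 12 sequenced libraries, 4 per genotype, and all 15089 genes of the count table. cKO;S/+ mice (labelled cKOA, replicates 8, 9, 10 and 14) were Nmnat2f/f; NexCre+/-; Sarm1+/-. ctrl-2 mice (replicates 4, 5, 6 and 7) were Nmnat2f/+; NexCre+/-; Sarm1+/- by the series' design, although the study's methods also allow ctrl-2 littermates with no Sarm1 null allele. Both genotypes thus carried Nex-Cre, which recombines floxed alleles in postmitotic glutamatergic neurons of the cortex and hippocampus and is not meant to act in astrocytes. All mice were 16 days old, each library was 1 mouse, and the labels give no sex. Cortices were dissociated, cleared of debris and of dead cells, and astrocytes were taken magnetically with beads against ACSA-2, an epitope of the astrocyte sodium pump subunit ATP1B2. The remaining 4 libraries, of cKO;S/S mice that lack Sarm1, entered the fit only as a source of the estimated spread.

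NMNAT2 makes NAD+ from nicotinamide mononucleotide and is needed to keep axons alive. SARM1 is an NAD+ hydrolase that is activated when NMNAT2 is lost and that drives axon degeneration. Astrocytes take up glutamate and potassium, supply lipids and matrix to neurons and respond to injury with reactive programs, whereas microglia are the resident macrophages of the brain and the main source there of complement C1q, chemokines and lysosomal proteases.

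Total counts of the 8 libraries ran from 17861292 to 22159404, so that depth was similar in both genotypes. The astrocyte label was borne out by its markers, 20 of 20 of which were measured, with summed levels of 33055 to 40257 CPM in cKO;S/+ and 37586 to 41897 CPM in ctrl-2 (CPM, the counts scaled to a fixed library total after TMM scaling). Markers of other cells were also present. The 20 general markers of microglia and macrophages summed to 3071 to 6317 CPM in cKO;S/+ and 1675 to 3360.1 CPM in ctrl-2, the 14 of oligodendrocytes to 3639 to 7415 CPM in cKO;S/+ and 3723 to 12170.4 CPM in ctrl-2 and the 13 of endothelium to 772 to 1301 CPM in cKO;S/+ and 750.4 to 971 CPM in ctrl-2. No marker of these lists that was measured had 0 CPM in a whole genotype. In a principal component analysis of the 8 libraries, the first component held 49.2% of the variance and put cKO;S/+ replicate 14 (-16.0) among the ctrl-2 libraries (-25.6 to -15.7), with cKO;S/+ replicates 8, 9 and 10 at 30.5 to 38.1. Xist, the RNA that silences an X chromosome in females, stood at 1031, 1329, 1151 and 0.0552 CPM in cKO;S/+ and 0.239, 0.334, 0.392 and 1385 CPM in ctrl-2. Ddx3y, a Y-linked helicase, had 0, 0, 0 and 98.9 CPM in cKO;S/+ and 111, 97.99, 105 and 0 CPM in ctrl-2. By these genes 3 cKO;S/+ libraries were from females and replicate 14 from a male, while 1 ctrl-2 library was from a female and 3 were from males, so genotype and sex were unevenly crossed.

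Of the 15089 genes tested, 890 rose (5.9%) and 208 fell (1.38%) in cKO;S/+ against ctrl-2 at an adjusted p under 0.05 (edgeR's quasi-likelihood test with Benjamini-Hochberg adjustment). The 890 higher genes had a median log2 fold change of 0.79, and 293 of them changed by at least 1 on the log2 scale. The 208 lower genes had a median of -0.46, with 17 changed by at least 1, so decreases were fewer and smaller. With upper-quartile in place of TMM scaling, which shifted the median of all genes to -0.043, 805 were higher and 371 lower. In 550 of the higher and 180 of the lower genes all 4 cKO;S/+ libraries lay beyond all 4 ctrl-2 libraries, against 6.53% and 4.8% of all genes tested. Among genes with a mean of 100 CPM or more, 144 of 2068 were higher and 49 lower, and among those from 1 to 10 CPM, 155 of 4001 were higher and 35 lower. The smallest adjusted p was 0.0138. A call and a lack of overlap rest on the same libraries, and all genes tested include the called ones. The counts without overlap, here and in the lists below, thus describe the called genes and are no separate support for them.

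Replicate 14 carried these changes only in part. It was the cKO;S/+ library nearest to ctrl-2 in 807 of the 890 higher genes, lay above all ctrl-2 libraries in 559 of them, and reached a median of 37.9% of the log2 difference of replicates 8, 9 and 10. Among the 208 lower genes it lay below all ctrl-2 libraries in 181 and reached a median of 56.4% of that difference. Without replicate 14 the same test called 1604 genes higher and 974 lower, among them 889 and 206 of those above. Without ctrl-2 replicate 4, 6 or 7, or without cKO;S/+ replicate 8, it called no gene, with smallest adjusted p values of 0.0525 to 0.0630 and with 2486 to 3077 genes at an unadjusted p under 0.05. Without cKO;S/+ replicate 10 it called 33 higher and 4 lower, and without cKO;S/+ replicate 9, 433 and 35. Every one of the 1098 genes kept its direction in each of these fits. With Xist status as a term, the test called no gene, with 2652 genes at an unadjusted p under 0.05 and a smallest adjusted p of 0.0562. Among libraries of males alone, 851 of the higher and 208 of the lower genes differed in the same direction, on the 1 cKO;S/+ library. Among those of females alone, 890 and 208 did, on the 1 ctrl-2 library. These are descriptions without a test. The genes were called from these same libraries, which by itself favours the same direction within each sex and in the fits above. Such agreement cannot separate genotype from sex or from single libraries.

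**Figure D1:**
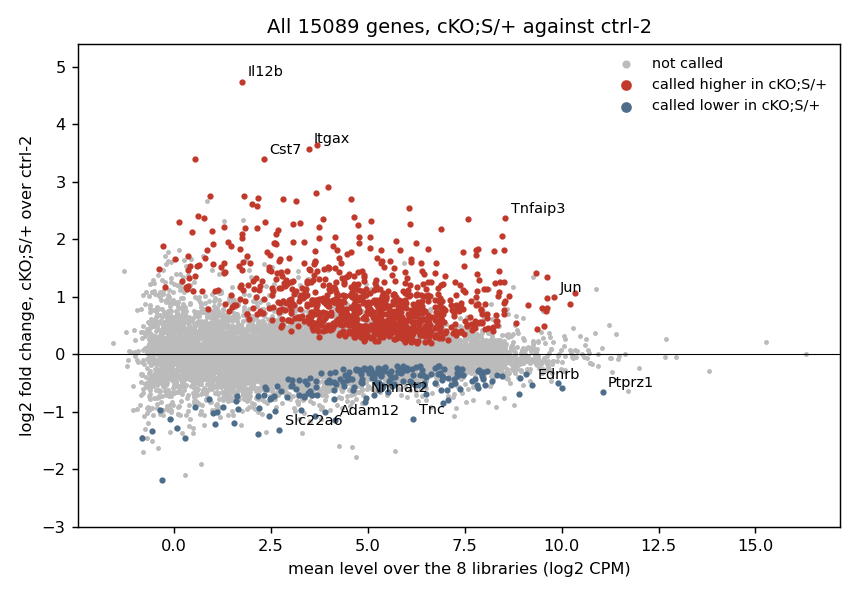
Log2 fold change of cKO;S/+ over ctrl-2 (vertical axis) against the mean level over the 8 libraries in log2 CPM (horizontal axis) for the 15089 genes, with 890 genes called higher in red and 208 called lower in blue. Higher genes reach further from 0 than lower genes, and 1 gene that was not called lies below the plotted range.

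Nmnat2 itself (Entrez 226518, chromosome 1, 152954781 to 153119266, GRCm38), the floxed gene, had 20.9, 20.7, 20.3 and 29.4 CPM in cKO;S/+, against 38.7, 35.6, 37.3 and 42.4 CPM in ctrl-2. The groups did not overlap, and replicate 14 was the highest of the cKO;S/+ libraries (log2 fold change -0.76, SE 0.19, adjusted p = 0.0341). Nmnat2 is mainly a neuronal transcript and Nex-Cre acts in neurons, and how much of this RNA came from astrocytes was not tested. Sarm1 (Entrez 237868, chromosome 11, 78470273 to 78497816) had 10.1, 9.27, 9.66 and 6.13 CPM in cKO;S/+ and 12.8, 8.16, 11.03 and 5.73 CPM in ctrl-2. The lowest value of each genotype lay close to 6 CPM and the groups overlapped throughout (log2 fold change -0.10, SE 0.24, adjusted p = 0.839). In bulk libraries fewer cells of a type and less RNA per cell cannot be told apart, here and in every value that follows.

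Of all genes tested, 5.9% rose and 1.38% fell, and the counts of the lists that follow are to be read beside these shares. Among genes of microglia and macrophages the lists differed. Of the 20 general markers, 19 rose and none fell, with a median log2 fold change of 1.11 against -0.0020 for all genes. Trem2, a lipid receptor of microglia, had 114, 83.1, 113 and 49.3 CPM in cKO;S/+, against 36.4, 45.97, 26.9 and 23.5 CPM in ctrl-2. Tyrobp, its signalling adaptor, had 113, 92.03, 116 and 55.4 CPM in cKO;S/+ and 45.2, 55.3, 33.8 and 28.98 CPM in ctrl-2. In both genes the groups were separated only by a narrow gap between cKO;S/+ replicate 14 and ctrl-2 replicate 5, the highest of the controls (log2 fold change 1.44, SE 0.28, adjusted p = 0.0196 for Trem2, and 1.21 for Tyrobp, adjusted p = 0.0199). Of the 13 homeostatic markers only 6 rose, by less (median 0.75). Csf1r, the receptor that keeps microglia alive, had 1788, 1326, 1888 and 1132 CPM in cKO;S/+ and 886, 1178, 718 and 574 CPM in ctrl-2, and Siglech, a microglial lectin, had 227, 179.5, 249 and 164 CPM in cKO;S/+ and 122, 172, 99.3 and 94.5 CPM in ctrl-2. Both passed the test (log2 fold changes 0.87 and 0.75, adjusted p = 0.0327 and 0.0326), but ctrl-2 replicate 5 lay above cKO;S/+ replicate 14 in each. Markers of border-associated macrophages did not follow. Of the 9 measured, 7 had fold changes below 0 and 2 above (median -1.04), and 7 had an unadjusted p under 0.05. The most abundant member was among the 2 above 0 but was not called (log2 fold change 0.38, adjusted p = 0.0509). Of 9 measured, 1 fell, the carbonyl reductase gene Cbr2 (-1.19, adjusted p = 0.04598), and the scavenger receptor gene Mrc1 had 54.4, 31.99, 69.7 and 64.5 CPM in cKO;S/+ and 115, 49.8, 53.1 and 85.9 CPM in ctrl-2, with overlapping groups (-0.46, adjusted p = 0.343).

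Microglia around damaged tissue raise a set known as disease-associated genes. Of 18 measured, 11 rose and none fell (median 1.14), and 7 of the 11 had groups that did not overlap. Itgax (Entrez 16411, chromosome 7, 128129526 to 128150657), which encodes the integrin CD11c, had 23.3, 25.2, 30.2 and 2.87 CPM in cKO;S/+, against 1.38, 2.29, 1.68 and 1.46 CPM in ctrl-2. Replicates 8, 9 and 10 stood more than 8 times above every other library, while replicate 14 was only just above the controls (log2 fold change 3.58, SE 0.54, adjusted p = 0.0138). Cst7, the protease inhibitor cystatin F, had 9.38, 13.7, 11.5 and 1.77 CPM in cKO;S/+ and 1.002, 1.19, 0.728 and 0.485 CPM in ctrl-2, again with replicates 8, 9 and 10 far above replicate 14 and replicate 14 just above the controls (log2 fold change 3.4, SE 0.52, adjusted p = 0.0138). Spp1, the secreted protein osteopontin, had 23.5, 36.1, 29.2 and 6.403 CPM in cKO;S/+ and 5.87, 3.48, 3.58 and 5.63 CPM in ctrl-2 (log2 fold change 2.35, SE 0.42, adjusted p = 0.0179). Lpl, lipoprotein lipase, had 47.6, 46.9, 64.2 and 15.4 CPM in cKO;S/+ and 11.4, 13.2, 8.96 and 8.79 CPM in ctrl-2 (log2 fold change 2.04, SE 0.32, adjusted p = 0.0141). In both, replicate 14 lay less than 3 CPM above the highest control. Csf1, the growth factor for microglia, which astrocytes as well as microglia make, had 301, 319, 296 and 145 CPM in cKO;S/+, against 85.7, 106, 92.1 and 82.7 CPM in ctrl-2. Here replicate 14 stood clearly apart from the controls (log2 fold change 1.53, SE 0.22, adjusted p = 0.0138). Ccl6, a chemokine of myeloid cells, rose by 2.39 (adjusted p = 0.0161).

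The 12 genes with the largest increases, among called genes whose groups did not overlap and that averaged at least 5 CPM in cKO;S/+, were led by Il12b, a subunit of interleukin 12. It had 10.7, 8.18, 5.81 and 1.32 CPM in cKO;S/+ and 0.286, 0.191, 0.336 and 0.146 CPM in ctrl-2 (log2 fold change 4.75, SE 0.72, adjusted p = 0.0138). Its controls lay near the floor, so the size of this ratio is uncertain. Beside Itgax, Cst7, Spp1 and Ccl6 the 12 genes included Cd22, a sialic acid lectin, with 9.77, 8.01, 11.9 and 1.44 CPM in cKO;S/+ and 1.43, 1.29, 0.616 and 1.36 CPM in ctrl-2. Replicate 14 was level with the highest control for this gene (log2 fold change 2.71, SE 0.54, adjusted p = 0.0204). Tnfaip2, induced by tumour necrosis factor, had 31.7, 29.9, 21.7 and 5.796 CPM in cKO;S/+ and 2.48, 3.82, 3.25 and 3.16 CPM in ctrl-2 (log2 fold change 2.81, SE 0.44, adjusted p = 0.0141). Bcl2a1b, an anti-apoptotic gene with near-identical copies between which reads may be divided, had 54.1, 57.97, 40.6 and 11.98 CPM in cKO;S/+ and 5.63, 9.88, 5.37 and 4.47 CPM in ctrl-2 (log2 fold change 2.696, SE 0.43, adjusted p = 0.0145). In both, replicate 14 lay above every control, which the choice of these 12 genes requires. Tnfsf9, the ligand of 4-1BB, had 11.3, 10.99, 7.95 and 3.75 CPM in cKO;S/+ and 1.34, 1.53, 1.68 and 2.33 CPM in ctrl-2, and Arl5c, a small GTPase gene, had 20.6, 19.97, 16.04 and 4.03 CPM in cKO;S/+ and 1.81, 3.96, 1.46 and 2.23 CPM in ctrl-2 (2.302 and 2.67, adjusted p = 0.0146 and 0.0177). Replicate 14 of Tnfsf9 was well clear of the controls, whereas that of Arl5c stood beside ctrl-2 replicate 5.

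NF-kappaB is a family of transcription factors held in the cytoplasm by inhibitors that the factor itself induces. Of 17 subunits and inhibitors, 13 rose and none fell (median 1.19). Nfkbia (Entrez 18035, chromosome 12, 55489409 to 55492647), the inhibitor IkappaB alpha, had 636, 472, 564 and 231 CPM in cKO;S/+, against 128, 185, 133 and 101 CPM in ctrl-2. All 4 cKO;S/+ libraries were higher than all controls, with replicate 14 the closest (log2 fold change 1.8, SE 0.30, adjusted p = 0.0169). Tnfaip3, the deubiquitinase A20 that ends NF-kappaB signalling, had 886, 630.4, 737 and 244 CPM in cKO;S/+ and 90.5, 191, 113 and 89.1 CPM in ctrl-2 (log2 fold change 2.37, SE 0.41, adjusted p = 0.0177). The subunit genes Relb and Rela rose less than Nfkbia and Tnfaip3. Relb had 15.7, 12.02, 12.8 and 7.397 CPM in cKO;S/+ and 4.96, 6.11, 5.88 and 5.34 CPM in ctrl-2 and Rela had 80.8, 73.6, 80.98 and 61.1 CPM in cKO;S/+ and 52.9, 57.3, 51.4 and 50.3 CPM in ctrl-2, both without overlap (log2 fold changes 1.11 and 0.48, adjusted p = 0.0179 and 0.01801). The promoter of Nfkbia is shown because this inhibitor is a textbook target of the factor that it restrains. The window runs from 250 bases before to 50 after the start site in the RefSeq annotation of GRCm38.p6 (chr12:55492598-55492897, minus strand), and the motif searched on both strands was GGGANTTTC, whose matches, 113 and 28 bases before the start site, are in capitals.
Nfkbia: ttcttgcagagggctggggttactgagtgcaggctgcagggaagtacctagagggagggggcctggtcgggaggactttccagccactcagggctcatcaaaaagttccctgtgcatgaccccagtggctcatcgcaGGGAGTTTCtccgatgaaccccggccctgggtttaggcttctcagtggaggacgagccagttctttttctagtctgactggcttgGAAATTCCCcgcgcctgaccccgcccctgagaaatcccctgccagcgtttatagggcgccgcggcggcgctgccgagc
The motif was found in 3 of the 13 measured members of the list that had a window, in 2.81% of the 675 higher genes with one, and in 1.29% of the 11088 genes tested. The motif of PU.1, GAGGAAGT, the factor that directs the myeloid program, was in 9.04% of higher, 7.5% of lower and 3.41% of all genes with a window. These shares are descriptions, and a match does not mark a used site.

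Receptors that feed NF-kappaB and cytokines that it induces were called in part. Of 20 Toll-like receptors and adaptors, 9 rose and none fell. Tlr2, which senses bacterial lipopeptides, had 69.9, 58.5, 64.4 and 20.4 CPM in cKO;S/+ and 12.9, 17.4, 10.9 and 10.3 CPM in ctrl-2 (log2 fold change 2.05, SE 0.32, adjusted p = 0.01398), and its coreceptor Cd14 had 128, 88.99, 100.2 and 33.8 CPM in cKO;S/+ and 29.8, 31.3, 17.8 and 21.4 CPM in ctrl-2 (log2 fold change 1.81, SE 0.38, adjusted p = 0.0221). The kinase gene Irak4, which relays their signal, changed by only 0.55 (adjusted p = 0.0217) but without overlap. Of 22 interleukins, tumour necrosis factors and their receptors, 16 rose and none fell (median 0.95). Il1b, the pyrogen interleukin 1 beta, had 85.4, 57.5, 66.6 and 15.3 CPM in cKO;S/+ and 6.54, 15.8, 9.29 and 13.2 CPM in ctrl-2. For this gene replicate 14 lay below ctrl-2 replicate 5 (log2 fold change 2.32, SE 0.45, adjusted p = 0.0199). Csf3r, the receptor for granulocyte colony-stimulating factor, had 151, 126, 157 and 74.3 CPM in cKO;S/+ and 44.8, 63.4, 47.2 and 38.1 CPM in ctrl-2, with no overlap (log2 fold change 1.39, SE 0.23, adjusted p = 0.0158). Of 15 chemokine genes, 8 rose and none fell (median 1.67). Ccl4, which attracts macrophages and T cells, had 147, 109, 142 and 47.4 CPM in cKO;S/+ and 16.1, 38.3, 19.6 and 18.7 CPM in ctrl-2, and Cxcl16, a membrane-bound chemokine, had 60.3, 49.3, 51.6 and 15.1 CPM in cKO;S/+ and 8.301, 13.6, 8.17 and 7.14 CPM in ctrl-2. In both, replicate 14 was above all controls and ctrl-2 replicate 5 was the highest of the controls (log2 fold changes 2.27 and 2.24, adjusted p = 0.0167 and 0.0179). Cd83, a surface protein of activated antigen-presenting cells, reached 761, 571, 683 and 272 CPM in cKO;S/+ and 95.99, 225, 116 and 111 CPM in ctrl-2 (log2 fold change 2.06, SE 0.36, adjusted p = 0.0177).

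Interferon-stimulated genes were divided within cKO;S/+. Of 24 measured, 15 rose and none fell (median 1.33), but only 2 of the 15 had groups that did not overlap. The mean log2 CPM of the list, relative to the ctrl-2 mean, was 1.44, 1.17, 2.06 and -0.065 in cKO;S/+ and 0.089, 0.093, -0.26 and 0.078 in ctrl-2, so that replicate 14 sat within the controls while replicates 8, 9 and 10 were far above. Usp18, which removes ISG15 from proteins, had 6.74, 6.295, 13.5 and 2.26 CPM in cKO;S/+ and 1.72, 1.72, 1.34 and 1.46 CPM in ctrl-2 (log2 fold change 2.204, SE 0.44, adjusted p = 0.0204). Oasl1, an inhibitor of the translation of Irf7, had 4.79, 3.09, 4.81 and 0.607 CPM in cKO;S/+ and 0.6202, 0.191, 0.8398 and 0.3398 CPM in ctrl-2, with replicate 14 below ctrl-2 replicates 4 and 6 (log2 fold change 2.75, SE 0.56, adjusted p = 0.0214). Irf1, a transcription factor of this response, had 66.1, 52.4, 64.7 and 25.8 CPM in cKO;S/+ and 19.7, 27.5, 19.1 and 19.3 CPM in ctrl-2 (log2 fold change 1.29, SE 0.26, adjusted p = 0.02103). Without replicate 14, 20 of the 24 were called. Gbp5, a guanylate-binding protein gene that rose (log2 fold change 1.04, SE 0.17, adjusted p = 0.0169), was an exception in which replicate 14 (8.78 CPM) was above all controls.

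Antigen presentation rests on peptide-loaded MHC molecules. Of 16 genes of MHC class I and the immunoproteasome, 13 rose and none fell (median 1.09). H2-D1, a class I heavy chain, had 36.5, 25.6, 35.2 and 15.01 CPM in cKO;S/+ and 11.5, 12.5, 7.84 and 9.51 CPM in ctrl-2 (log2 fold change 1.44, SE 0.27, adjusted p = 0.0186). H2-T23, a nonclassical class I gene, had 30.8, 24.2, 36.2 and 13.03 CPM in cKO;S/+ and 9.21, 11.3, 6.94 and 9.32 CPM in ctrl-2, and Psmb8, a subunit of the immunoproteasome, had 24.7, 16.02, 25.6 and 10.3 CPM in cKO;S/+ and 8.301, 9.83, 5.37 and 7.18 CPM in ctrl-2, both without overlap (1.504 and 1.32, adjusted p = 0.0186 and 0.0224). H2-Q5 and H2-Q4, which are close copies of each other, rose by 2.59 and 1.68 (adjusted p = 0.0214 and 0.0199). Reads can be divided between such copies, so values of single H2 genes are uncertain. Of 7 class II genes 3 rose, Cd74, H2-DMa and H2-Oa, at low levels. Cd74, the invariant chain, had 42.4, 33.8, 42.4 and 16.3 CPM in cKO;S/+ and 22.5, 14.4, 14.5 and 14.9 CPM in ctrl-2, with replicate 14 below ctrl-2 replicate 4 (log2 fold change 1.03, SE 0.28, adjusted p = 0.0426). Of 15 genes of inflammasomes and pyroptosis, 9 rose and none fell. Among them were the inflammatory caspase gene Casp4 (log2 fold change 2.19, SE 0.44, adjusted p = 0.02103) and the inflammasome sensor genes Naip5 and Naip2 (1.51 and 1.202, adjusted p = 0.0179 and 0.0231), which again are close copies.

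Lysosomal and complement genes were called in part. Of 24 lysosomal genes, 12 rose and none fell (median 0.62), and none of the 12 had groups that did not overlap. Ctsd, the aspartic protease cathepsin D, had 2043, 1770.1, 2158 and 1013 CPM in cKO;S/+ and 847, 1038, 772 and 662 CPM in ctrl-2, and Ctsb, a cysteine protease, had 1235, 1061, 1278 and 577 CPM in cKO;S/+ and 552, 588, 499.6 and 459 CPM in ctrl-2. Replicate 14 lay within the controls in both (log2 fold changes 1.07 and 0.98, adjusted p = 0.0201 and 0.0208). Ctsz rose by 1.21 (adjusted p = 0.0196). Of 19 complement genes 7 rose and none fell, and only the integrin Itgax of these was free of overlap. C1qc, a chain of C1q, had 508, 439, 579 and 297 CPM in cKO;S/+ and 234, 299, 175 and 148 CPM in ctrl-2, with replicate 14 level with ctrl-2 replicate 5 (log2 fold change 1.09, SE 0.23, adjusted p = 0.0221). Of 18 genes of phagocytosis and efferocytosis 3 rose, Trem2, the integrin gene Itgb5 (0.69, adjusted p = 0.0243) and the phosphatidylserine receptor gene Havcr2 (1.14, adjusted p = 0.02898), and the list had a median of 0.16.

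**Figure D2:**
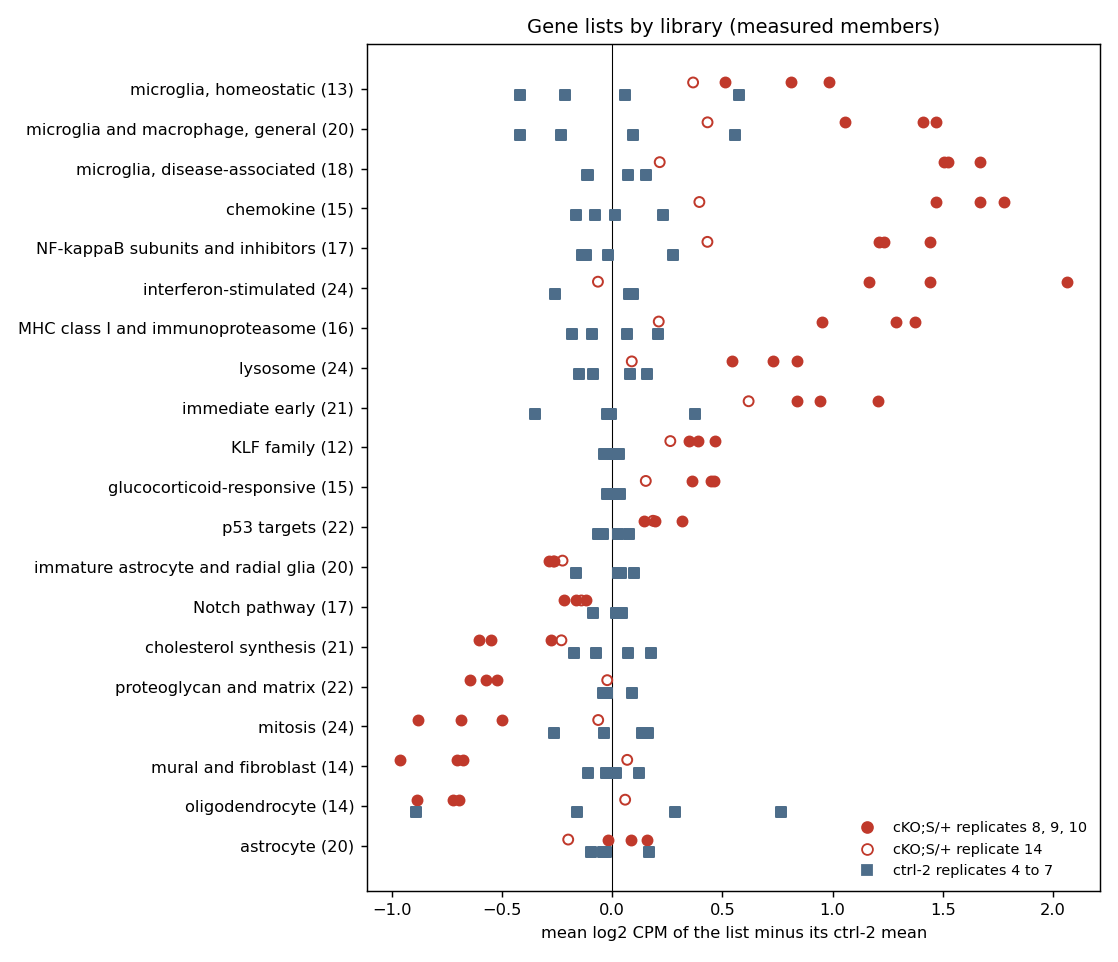
Mean log2 CPM of 20 gene lists in each library, minus the ctrl-2 mean of the same list (horizontal axis, log2 units), with filled red circles for cKO;S/+ replicates 8, 9 and 10, open red circles for cKO;S/+ replicate 14 and blue squares for ctrl-2. The number of measured members follows each name. Interferon-stimulated genes place replicate 14 among the controls, whereas the p53, KLF, Notch and immature astrocyte lists place it with the other cKO;S/+ libraries.

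Immediate early genes, which stimulated or stressed cells transcribe within minutes, placed replicate 14 nearer to the other cKO;S/+ libraries. Of 21 measured, 14 rose and none fell (median 1.01), 11 of them without overlap. Jun (Entrez 16476, chromosome 4, 95049036 to 95052222), a subunit of the AP-1 factor, had 1540.4, 1003, 1359 and 881 CPM in cKO;S/+, against 489, 827, 561 and 528 CPM in ctrl-2, and its partner Fos had 942, 614, 728 and 618 CPM in cKO;S/+ and 289, 490.1, 386 and 431 CPM in ctrl-2. In both, ctrl-2 replicate 5 was the highest control and lay below every cKO;S/+ library (log2 fold changes 0.99 and 0.86, adjusted p = 0.0259 and 0.03201). Atf3, a stress-induced factor, had 762, 492, 708 and 330.2 CPM in cKO;S/+ and 119, 247, 151 and 133 CPM in ctrl-2 (log2 fold change 1.82, SE 0.33, adjusted p = 0.0179), and Dusp1, a phosphatase of MAP kinases, had 483, 295, 339.9 and 194 CPM in cKO;S/+ and 113, 140.1, 124 and 120.0 CPM in ctrl-2 (log2 fold change 1.4, SE 0.24, adjusted p = 0.0177). Zfp36, which speeds the decay of cytokine messenger RNAs, rose by 1.41 and Jund, another AP-1 subunit, by 1.01 (adjusted p = 0.0209 and 0.0199). The dissociation and sort took place before RNA was extracted, and its part in these genes was not tested. Other abundant genes that rose were Rhob, a small GTPase gene, with 1065, 797, 1059 and 734 CPM in cKO;S/+ and 519, 635, 511 and 418 CPM in ctrl-2 (log2 fold change 0.81, SE 0.17, adjusted p = 0.0214), and Fth1, the heavy chain of the iron store ferritin, with 781, 761, 824 and 643 CPM in cKO;S/+ and 628, 536, 553 and 504 CPM in ctrl-2 (log2 fold change 0.44, SE 0.11, adjusted p = 0.0318). Neither overlapped between genotypes, which was a condition for naming the most abundant called genes. Of 12 KLF factors, 5 rose and none fell. Klf2, best known from endothelium and resting macrophages, had 187, 128, 135 and 110.3 CPM in cKO;S/+, against 63.7, 63.01, 54.98 and 53.2 CPM in ctrl-2. Replicate 14 was close to replicates 9 and 10 and far from the controls (log2 fold change 1.25, SE 0.17, adjusted p = 0.0138). Klf4 had 131, 85.2, 85.5 and 93.1 CPM in cKO;S/+ and 52.9, 64.5, 51.96 and 61.02 CPM in ctrl-2, where replicate 14 exceeded replicates 9 and 10 (log2 fold change 0.78, SE 0.17, adjusted p = 0.0226), and Klf6 rose by 1.03 (adjusted p = 0.0186).

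Stress genes changed in small numbers. Of 18 genes of the integrated stress and unfolded protein responses, 5 rose and none fell. Ppp1r15a, which restores translation after stress, had 391, 262, 320.2 and 109 CPM in cKO;S/+ and 71.2, 99.4, 78.6 and 67.04 CPM in ctrl-2 (log2 fold change 1.78, SE 0.33, adjusted p = 0.0188), and Herpud1, which serves in the disposal of misfolded proteins, had 152, 115, 155 and 93.8 CPM in cKO;S/+ and 61.6, 66.8, 71.4 and 55.2 CPM in ctrl-2 (log2 fold change 1.02, SE 0.17, adjusted p = 0.0169). Atf4, the central factor of the response, changed by only 0.49 (adjusted p = 0.0437). Of 16 heat shock chaperones 2 rose, and of these Hspb1, a small heat shock protein gene, had 26.9, 17.5, 22.2 and 20.7 CPM in cKO;S/+ and 10.3, 10.3, 8.01 and 11.2 CPM in ctrl-2. Replicate 14 exceeded replicate 9, and the groups were well separated (log2 fold change 1.13, SE 0.17, adjusted p = 0.0138). Of 22 targets of p53, 4 rose and 1 fell. Pmaip1, the BH3-only protein NOXA, had 36.5, 27.2, 35.7 and 15.3 CPM in cKO;S/+ and 7.97, 10.6, 6.77 and 7.18 CPM in ctrl-2, and Cdkn1a, the cell cycle inhibitor p21, had 56.6, 49.7, 47.8 and 33.1 CPM in cKO;S/+ and 24.1, 24.1, 26.03 and 23.1 CPM in ctrl-2, both without overlap (1.82 and 0.94, adjusted p = 0.0138 and 0.0138). Gdf15, a stress hormone, had 15.9, 8.41, 14.8 and 8.28 CPM in cKO;S/+ and 3.58, 5.44, 3.92 and 1.84 CPM in ctrl-2 (log2 fold change 1.68, SE 0.37, adjusted p = 0.0229), while Zmat3, an RNA-binding protein gene, fell by 0.30 on the log2 scale (adjusted p = 0.0262). The list as a whole stayed at a median of -0.017.

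Further signalling lists changed in few members. Of 20 genes of the BMP and TGF-beta pathway, 4 rose and none fell. Smad7, an inhibitor of the pathway, had 155, 122, 161 and 103 CPM in cKO;S/+ and 92.5, 83.7, 79.4 and 69.3 CPM in ctrl-2, and Smad3, its mediator, had 85.7, 74.9, 93.7 and 69.7 CPM in cKO;S/+ and 57.7, 63.9, 60.2 and 55.4 CPM in ctrl-2 (log2 fold changes 0.74 and 0.45, adjusted p = 0.0221 and 0.0214). Tgfb1, the ligand, rose by 0.82 (adjusted p = 0.0238) with replicate 14 below ctrl-2 replicate 5. Of 15 genes that respond to glucocorticoids, 4 rose and none fell. Sgk1, a kinase gene, had 313, 284, 384 and 249.6 CPM in cKO;S/+ and 156, 177, 127 and 113 CPM in ctrl-2 (log2 fold change 1.103, SE 0.17, adjusted p = 0.0138), and the clock gene Per1 had 381, 326, 298 and 309 CPM in cKO;S/+ and 214, 188, 244 and 203 CPM in ctrl-2, with no overlap in either (log2 fold change 0.63, SE 0.11, adjusted p = 0.0179). Of 6 genes of the endothelin system, 1 rose and 2 fell. Edn1, the ligand endothelin 1, had 16.1, 10.7, 13.8 and 13.6 CPM in cKO;S/+ and 6.77, 5.68, 5.99 and 8.301 CPM in ctrl-2 (log2 fold change 1.02, SE 0.15, adjusted p = 0.0138). Its receptor Ednrb, which astrocytes express strongly, had 412, 485, 581 and 505 CPM in cKO;S/+ and 659, 702, 811 and 683 CPM in ctrl-2 (log2 fold change -0.53, SE 0.12, adjusted p = 0.02605), and Ednra fell by 0.50 on the log2 scale (adjusted p = 0.0347).

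**Figure D3:**
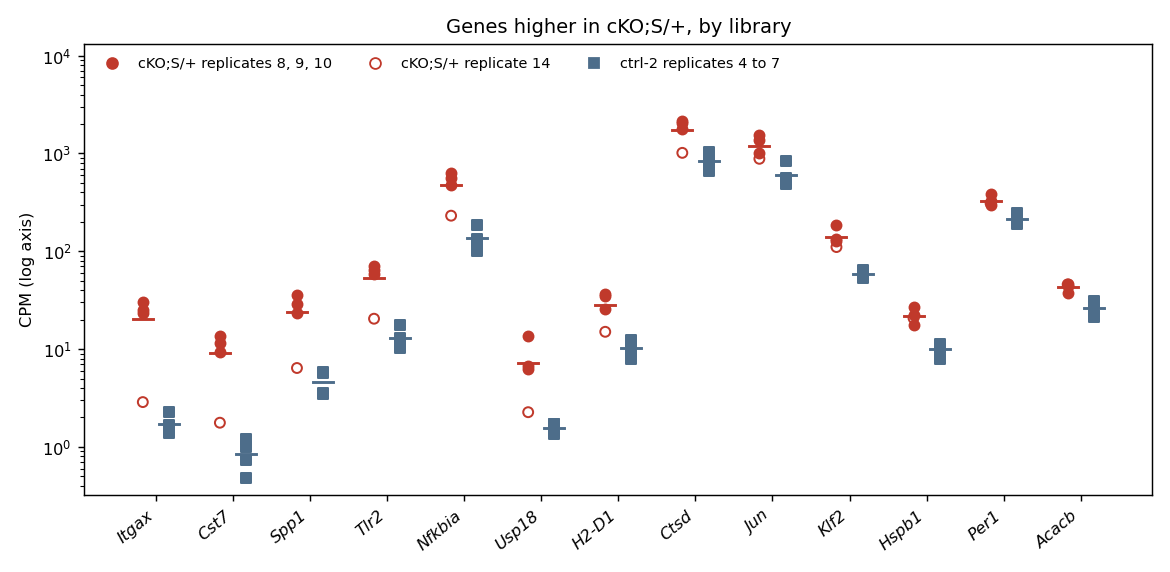
Level in CPM (vertical log axis) of 13 genes that rose in cKO;S/+, by library, with filled red circles for cKO;S/+ replicates 8, 9 and 10, an open red circle for replicate 14, blue squares for ctrl-2 and a bar at the mean of each group. Replicate 14 lies near ctrl-2 for Itgax, Usp18 and Ctsd and near the other cKO;S/+ libraries for Hspb1, Per1 and Acacb.

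Panels of reactive astrocytes changed in few members. Of 10 genes of the general reactive panel, 2 rose, Hspb1 and the asparaginase gene Aspg (log2 fold change 1.13, SE 0.32, adjusted p = 0.0497). The A1 panel, first defined in mice after lipopolysaccharide, had 4 of 12 higher, of which H2-D1, H2-T23 and Psmb8 are class I and immunoproteasome genes already given and Srgn encodes a proteoglycan of secretory granules of blood cells (log2 fold change 0.99, SE 0.21, adjusted p = 0.0217). The A2 panel, defined after ischaemia, had 3 of 11 higher. Clcf1, a neurotrophic cytokine, had 11.6, 9.1, 8.05 and 3.698 CPM in cKO;S/+ and 1.96, 3.34, 3.14 and 2.91 CPM in ctrl-2 (log2 fold change 1.52, SE 0.35, adjusted p = 0.0257), Ptgs2, cyclooxygenase 2, rose by 1.02 (adjusted p = 0.0257), and the third was Cd14. No member of the 3 panels fell. Their medians were 0.057, 0.34 and -0.094, in that order. None of the 20 astrocyte markers was called by the quasi-likelihood test (1 at an unadjusted p under 0.05, and 1 higher by DESeq2), with a median of -0.01. The highest of the 20 was Gfap, at a log2 fold change of 0.87. Without replicate 14 the same test called 1 of the 20 higher. The glutamate transporter genes Slc1a2 and Slc1a3 had lower values in every cKO;S/+ library than in every ctrl-2 library (log2 fold changes -0.28 and -0.24) but did not pass (adjusted p = 0.346 and 0.301). Slc1a2 had 10695, 13206, 14426 and 13649 CPM in cKO;S/+ and 15676, 15084, 15777 and 16617 CPM in ctrl-2.

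Several matrix genes of immature glia fell. Of 22 proteoglycan and matrix genes, 6 fell and none rose (median -0.46), all 6 without overlap. Ptprz1 (Entrez 19283, chromosome 6, 22875315 to 23052916), a receptor phosphatase whose ectodomain is a proteoglycan, had 1397, 1598, 1688 and 1910.3 CPM in cKO;S/+, against 2399, 2665, 2849 and 2482 CPM in ctrl-2. Every cKO;S/+ library was lower than every control, with replicate 14 the nearest (log2 fold change -0.66, SE 0.12, adjusted p = 0.0186). Ptn, the growth factor pleiotrophin and a ligand of PTPRZ1, had 749, 789, 852 and 928 CPM in cKO;S/+ and 1196, 1222, 1329.8 and 1215 CPM in ctrl-2 (log2 fold change -0.58, SE 0.10, adjusted p = 0.0179). Tnc (Entrez 21923, chromosome 4, 63959785 to 64047015), the matrix glycoprotein tenascin C, had 43.5, 40.2, 38.7 and 58.7 CPM in cKO;S/+ and 87.2, 102, 114 and 91.7 CPM in ctrl-2 (log2 fold change -1.13, SE 0.16, adjusted p = 0.0138). In both genes the gap between replicate 14 and the lowest control was wider than the range of the 4 cKO;S/+ libraries. Ncan, the proteoglycan neurocan, had 693, 711, 872 and 917 CPM in cKO;S/+ and 1083, 1065, 1285 and 1086 CPM in ctrl-2, and Hapln1, which links such proteoglycans to hyaluronan, had 152, 191, 211 and 184 CPM in cKO;S/+ and 229, 296, 294 and 289 CPM in ctrl-2 (log2 fold changes -0.50 and -0.59, adjusted p = 0.0436 and 0.0307). Replicate 14 of Hapln1 was amid the other cKO;S/+ libraries.

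Genes of immature astrocytes and radial glia overlapped with these. Of 20 measured, 5 fell and none rose (median -0.18), and these included Ptprz1, Tnc, Fabp7 and Egfr. Fabp7, the brain fatty acid-binding protein, had 85.5, 92.2, 100.4 and 117 CPM in cKO;S/+ and 139.8, 176, 211 and 157 CPM in ctrl-2 (log2 fold change -0.79, SE 0.14, adjusted p = 0.0179). Egfr, the receptor for epidermal growth factor, had 147, 158, 191 and 193 CPM in cKO;S/+ and 243, 237, 230.1 and 239 CPM in ctrl-2 (log2 fold change -0.46, SE 0.11, adjusted p = 0.0285). Neither Fabp7 nor Egfr overlapped between genotypes. The mean of the list relative to ctrl-2 was -0.27, -0.29, -0.27 and -0.23 in cKO;S/+ and -0.17, 0.10, 0.027 and 0.039 in ctrl-2, with all 4 cKO;S/+ libraries within 0.1 of each other and below all controls.

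The 12 largest decreases among called genes whose groups did not overlap and that averaged at least 5 CPM in ctrl-2 included Tnc and Fabp7 and were led by Slc22a6. Slc22a6, an organic anion transporter gene, had 3.17, 2.75, 2.904 and 6.18 CPM in cKO;S/+ and 6.298, 10.5, 8.398 and 12.2 CPM in ctrl-2 (log2 fold change -1.32, SE 0.33, adjusted p = 0.0326). Adam12, a metalloprotease gene, had 7.57, 7.73, 8.47 and 20.3 CPM in cKO;S/+, against 23.7, 23.1, 23.6 and 26.7 CPM in ctrl-2, and Adamts12, a secreted relative, had 6.398, 5.55, 6.19 and 14.02 CPM in cKO;S/+ and 17.99, 17.4, 17.9 and 14.3 CPM in ctrl-2. In these 3 genes replicate 14 was far above the other cKO;S/+ libraries and less than 3 CPM below the lowest control (log2 fold changes -1.14 for Adam12 and -1.07 for Adamts12, adjusted p = 0.0424 and 0.0328). Pla2g3, a secreted phospholipase gene, had 10.8, 9.44, 8.997 and 10.4 CPM in cKO;S/+ and 23.6, 12.6, 19.1 and 24.2 CPM in ctrl-2, and Tbx18, a factor of pericytes, had 5.52, 5.89, 5.71 and 8.83 CPM in cKO;S/+ and 11.5, 11.6, 12.3 and 15.6 CPM in ctrl-2 (-1.001 and -0.98, adjusted p = 0.0304 and 0.02103). Bmp2, a ligand of the BMP receptors, had 4.59, 3.26, 2.67 and 5.74 CPM in cKO;S/+ and 7.73, 7.68, 7.11 and 9.76 CPM in ctrl-2 (log2 fold change -0.99, SE 0.21, adjusted p = 0.0221). Cnr1, the cannabinoid receptor CB1, had 16.1, 16.1, 22.1 and 32.6 CPM in cKO;S/+ and 35.8, 41.8, 36.6 and 40.5 CPM in ctrl-2 (log2 fold change -0.83, SE 0.23, adjusted p = 0.0439). Cyp1b1 and Fgfbp3, a cytochrome and a binding protein of fibroblast growth factors, fell by 0.77 and 0.78 on the log2 scale (adjusted p = 0.0179 and 0.0201). Capn11, a calpain gene, had a log2 fold change of -1.08 (adjusted p = 0.0389). Among abundant genes, Trim9, a ubiquitin ligase gene, had 474, 483, 469 and 474 CPM in cKO;S/+ and 570.2, 541, 681 and 624 CPM in ctrl-2, with cKO;S/+ libraries within 14 CPM of each other (log2 fold change -0.35, SE 0.088, adjusted p = 0.0343), and Cdh2, N-cadherin, had 216, 229, 263 and 251 CPM in cKO;S/+ and 297, 285, 295 and 297 CPM in ctrl-2 (log2 fold change -0.29, SE 0.082, adjusted p = 0.0493).

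Signalling pathways of development were called in single members, beside 5.9% of all genes higher and 1.38% lower. Of 17 Notch genes 1 fell, Nrarp, a feedback inhibitor of Notch, with 85.1, 86.99, 93.8 and 81.1 CPM in cKO;S/+ and 102, 101, 129 and 110.2 CPM in ctrl-2 (log2 fold change -0.35, SE 0.089, adjusted p = 0.0343). Of 10 Sonic hedgehog genes 1 fell, the coreceptor Cdon (-0.57, adjusted p = 0.0284). Of 20 WNT genes, Fzd10, a frizzled receptor, fell (-0.51, adjusted p = 0.0337) and Sfrp5, a secreted antagonist, rose, with 32.5, 22.6, 40.7 and 19.1 CPM in cKO;S/+ and 17.5, 7.26, 12.7 and 8.64 CPM in ctrl-2 (log2 fold change 1.32, SE 0.33, adjusted p = 0.0314). Of 20 genes of FGF, EGF and neuregulin signalling 2 fell, Egfr and its ligand Hbegf (-0.41, adjusted p = 0.0206). Of 25 synaptogenic and synapse adhesion genes 2 fell, the neuroligins Nlgn1 and Nlgn3 (-0.31 and -0.25, adjusted p = 0.0282 and 0.0445).

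**Figure D4:**
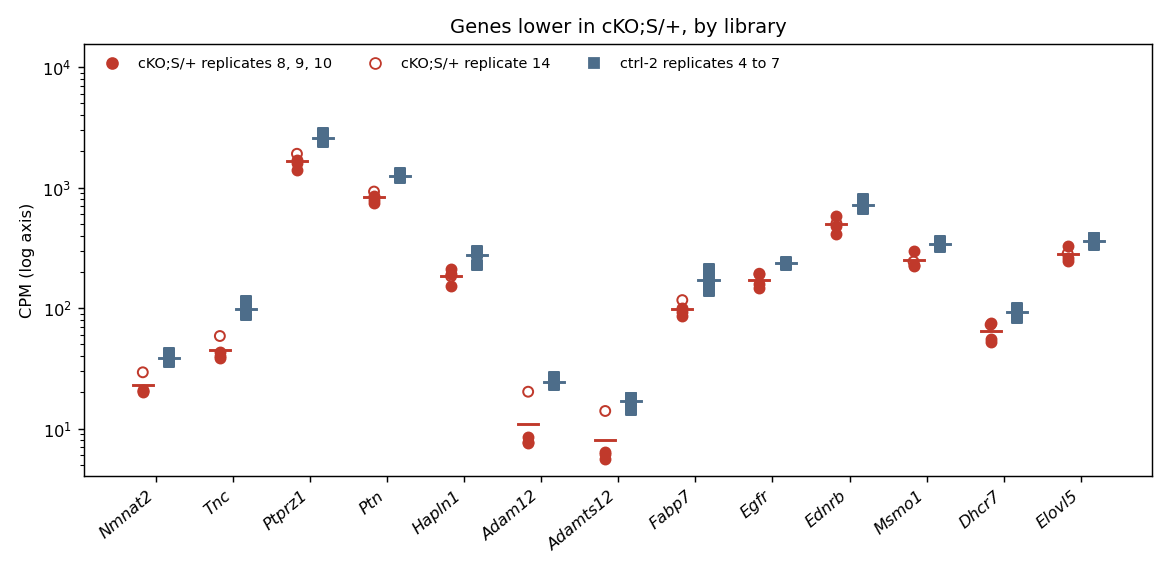
Level in CPM (vertical log axis) of 13 genes that fell in cKO;S/+, by library, with filled red circles for cKO;S/+ replicates 8, 9 and 10, an open red circle for replicate 14, blue squares for ctrl-2 and a bar at the mean of each group. All 4 cKO;S/+ libraries lie below all 4 ctrl-2 libraries in each gene, and replicate 14 stands off from the other cKO;S/+ libraries most in Adam12 and Adamts12.

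Cholesterol synthesis, which in brain runs in astrocytes and oligodendrocytes from acetyl-CoA through squalene to sterols, was the list with the most decreases. Of 21 measured enzymes, 11 fell and none rose (median -0.46), 8 of the 11 without overlap. Late in the pathway, Msmo1 (Entrez 66234, chromosome 8, 64718123 to 64733578), a sterol methyl oxidase, had 225, 229.9, 297 and 244 CPM in cKO;S/+, against 324, 335, 364 and 348 CPM in ctrl-2 (log2 fold change -0.46, SE 0.11, adjusted p = 0.0269), and Dhcr7, the last reductase, had 55.7, 52.9, 75.1 and 72.9 CPM in cKO;S/+ and 99.2, 89.1, 101 and 83.6 CPM in ctrl-2 (log2 fold change -0.54, SE 0.12, adjusted p = 0.0227). In both, replicate 14 was within the range of the other cKO;S/+ libraries. Sqle, squalene epoxidase, fell by 0.53 and Sc5d, a sterol desaturase, by 0.52 on the log2 scale (adjusted p = 0.0179 and 0.0186). Oligodendrocytes also make cholesterol, and the 14 oligodendrocyte markers had a median log2 fold change of -0.63 and overlapping groups. With the mean of these markers as a covariate no gene was called, enzymes included, and the median of the cholesterol list was -0.29. Without replicate 14, 13 of the 21 enzymes fell.

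Promoters of 3 of these enzymes are shown because they share CCAAT boxes, the site of NF-Y, a factor that works beside the sterol-sensing SREBP at sterol genes. The windows are RefSeq promoters of GRCm38.p6, printed 5′ to 3′ on the gene's strand, for Msmo1 (chr8:64733529-64733828, minus strand), Dhcr7 (chr7:143829964-143830263, plus strand) and Sc5d (chr9:42264251-42264550, minus strand), and CCAAT or its reverse complement ATTGG is in capitals.
Msmo1: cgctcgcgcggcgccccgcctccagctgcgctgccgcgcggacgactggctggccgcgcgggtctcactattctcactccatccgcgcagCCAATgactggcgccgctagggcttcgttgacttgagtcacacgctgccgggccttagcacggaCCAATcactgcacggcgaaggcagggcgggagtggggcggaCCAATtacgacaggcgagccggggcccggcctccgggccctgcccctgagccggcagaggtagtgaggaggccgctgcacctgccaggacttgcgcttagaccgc
Dhcr7: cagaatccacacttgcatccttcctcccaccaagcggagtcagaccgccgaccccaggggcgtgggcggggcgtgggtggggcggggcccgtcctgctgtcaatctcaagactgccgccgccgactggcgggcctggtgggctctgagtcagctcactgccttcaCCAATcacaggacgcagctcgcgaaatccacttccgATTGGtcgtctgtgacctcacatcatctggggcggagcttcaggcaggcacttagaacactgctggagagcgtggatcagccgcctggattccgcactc
Sc5d: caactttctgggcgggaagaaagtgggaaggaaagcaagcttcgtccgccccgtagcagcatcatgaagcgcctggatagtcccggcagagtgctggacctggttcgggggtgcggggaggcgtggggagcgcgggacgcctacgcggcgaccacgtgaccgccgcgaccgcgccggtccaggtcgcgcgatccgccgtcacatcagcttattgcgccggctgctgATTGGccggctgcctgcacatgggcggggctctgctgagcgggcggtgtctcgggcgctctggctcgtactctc
Msmo1 held 3 matches, from 160 to 55 bases before the start site, Dhcr7 held 2, 85 and 49 bases before it, in the window shown and 0 in each of its other 2 windows, and Sc5d held 1, 24 bases before it. CCAAT was present in 15 of the 16 measured cholesterol genes that had a window and in 8 of the 9 that fell, against 49.4% of all lower genes, 37.9% of higher genes and 42.5% of all genes tested. The sterol regulatory element in the form TCACNCCAC was in 1 of the 16 and in 1.41% of all genes. Genes with several windows were counted once if any held the motif.

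Other lipid lists had calls in both directions. The increases of 1 of 13 SREBP genes and 1 of 18 fatty acid synthesis genes are near the 5.9% of all genes that rose. Of 13 genes of SREBP regulation and lipoprotein uptake, Mylip, which degrades lipoprotein receptors, rose (1.03, adjusted p = 0.0221), and the lipoprotein receptor Vldlr and the sterol carrier Stard4 fell. Vldlr had 50.5, 50.5, 56.3 and 71.3 CPM in cKO;S/+ and 91.6, 70.3, 78.05 and 79.6 CPM in ctrl-2, with replicate 14 within the controls (log2 fold change -0.48, SE 0.12, adjusted p = 0.0288), and Stard4 had 14.4, 15.5, 16.6 and 22.2 CPM in cKO;S/+ and 24.1, 22.3, 25.03 and 24.5 CPM in ctrl-2, with replicate 14 just below them (log2 fold change -0.48, SE 0.13, adjusted p = 0.0442). Of 11 LXR targets and lipid efflux genes 2 rose, the sterol exporter Abcg1, with 102, 95.7, 119.7 and 66.96 CPM in cKO;S/+ and 52.1, 58.3, 51.9 and 48.6 CPM in ctrl-2 (log2 fold change 0.87, SE 0.15, adjusted p = 0.0177), and the apolipoprotein Apoc1, in which replicate 14 lay within the controls (log2 fold change 1.45, SE 0.39, adjusted p = 0.04203). Of 18 genes of fatty acid synthesis, the elongases Elovl5 and Elovl6 fell and Acacb rose. Acacb, the acetyl-CoA carboxylase that restrains fatty acid entry into mitochondria, had 46.7, 44.4, 37.2 and 45.8 CPM in cKO;S/+ and 31.01, 21.2, 29.8 and 22.5 CPM in ctrl-2. All 4 cKO;S/+ libraries were higher than the controls and replicate 14 was the second highest (log2 fold change 0.74, SE 0.14, adjusted p = 0.0199). Elovl6 had 52.6, 57.9, 65.2 and 98.7 CPM in cKO;S/+ and 144, 83.5, 112 and 103 CPM in ctrl-2, with overlapping groups (log2 fold change -0.69, SE 0.19, adjusted p = 0.0438), and Elovl5 had 244, 259, 329 and 284 CPM in cKO;S/+ and 381, 340.1, 380.0 and 337 CPM in ctrl-2 (log2 fold change -0.37, SE 0.10, adjusted p = 0.0487). None of 22 genes of fatty acid oxidation and ketone bodies was called by the quasi-likelihood test or by DESeq2, with 3 at an unadjusted p under 0.05.

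Of 24 glycolysis and lactate genes, 3 rose and none fell. Pfkfb3, which makes the activator of phosphofructokinase, had 270.4, 207, 258 and 148 CPM in cKO;S/+ and 119, 135, 141 and 115 CPM in ctrl-2 (log2 fold change 0.79, SE 0.16, adjusted p = 0.0214). Hk2, the inducible hexokinase, had 148, 109, 163 and 79.8 CPM in cKO;S/+ and 61.7, 85.2, 50.9 and 47.3 CPM in ctrl-2, and Slc16a3, the lactate exporter MCT4, had 8.25, 5.55, 8.71 and 3.698 CPM in cKO;S/+ and 4.15, 3.34, 2.799 and 3.16 CPM in ctrl-2. In both, replicate 14 lay within the controls (log2 fold changes 1.03 and 0.96, adjusted p = 0.0277 and 0.0433). Of 20 NAD genes, Nmnat2 fell and Parp14, a mono-ADP-ribosyltransferase induced by interferon, rose, with 61.2, 53.1, 95.7 and 28.6 CPM in cKO;S/+ and 27, 31.4, 20.5 and 20.9 CPM in ctrl-2 (log2 fold change 1.26, SE 0.28, adjusted p = 0.0231). Of 24 ribosomal protein genes 1 rose, Rpl10a (0.33, adjusted p = 0.0487). In this list and the NAD list, 1 gene higher is near the 5.9% of all genes that rose. None of 25 nuclear-encoded respiratory chain subunits was called by the quasi-likelihood test (2 at an unadjusted p under 0.05, and 1 lower by DESeq2). None of 13 glycogen genes was called by any tool run, with 0 at an unadjusted p under 0.05. Of 22 glutathione and NRF2 genes, the quasi-likelihood test and limma-voom called none, with 6 at an unadjusted p under 0.05, while DESeq2 called 4 higher and 1 lower.

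Markers of neurons, oligodendrocytes and vessels gave 1 call in the quasi-likelihood test. Gad1, the enzyme that makes GABA in inhibitory neurons, was the only one of 16 neuronal markers called by the quasi-likelihood test, while DESeq2 called 2 higher and 1 lower. It had 17.5, 29.9, 11.5 and 13.6 CPM in cKO;S/+, against 5.2, 5.68, 4.703 and 8.54 CPM in ctrl-2. The groups did not overlap, and replicate 9 was the highest (log2 fold change 1.58, SE 0.33, adjusted p = 0.0218). The 16 markers together had a median of -0.014, and 1 of 16 higher is near the 5.9% of all genes that rose. None of 14 oligodendrocyte, 12 oligodendrocyte precursor, 13 endothelial or 14 mural and fibroblast markers was called by the quasi-likelihood test, with 5, 4, 4 and 7 at an unadjusted p under 0.05. DESeq2 called 0, 2, 3 and 1 of them, the endothelial ones higher and the others lower. With sample weights, limma-voom called 8 oligodendrocyte, 4 precursor and 8 mural and fibroblast markers lower and 3 endothelial markers higher. Without replicate 14, the quasi-likelihood test called 5, 4 and 6 of these lower, in that order, and 1 endothelial marker higher. All 14 mural and fibroblast markers had fold changes below 0, with a mean relative to ctrl-2 of -0.70, -0.96, -0.68 and 0.068 in cKO;S/+ and 0.12, 0.019, -0.11 and -0.03 in ctrl-2, so replicates 8, 9 and 10 lay apart and replicate 14 did not. Mitosis genes had the same arrangement. Of 24 measured, 2 fell, the kinase gene Bub1, with 4.44, 3.32, 4.09 and 6.18 CPM in cKO;S/+ and 7.16, 8.02, 6.72 and 7.86 CPM in ctrl-2 (log2 fold change -0.72, SE 0.19, adjusted p = 0.0403), and Ect2, which directs cytokinesis (-0.72, adjusted p = 0.0354). Without replicate 14, 17 of the 24 fell and none rose. None of 20 DNA replication genes was called (6 at an unadjusted p under 0.05, and 3 lower by DESeq2), and with replicate 14 left out 4 were lower.

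The lists thus differed in where they placed replicate 14. As a share of the mean difference of replicates 8, 9 and 10 from ctrl-2, replicate 14 stood at -4.16% for interferon-stimulated genes, 12.6% for lysosomal genes, 13.8% for disease-associated genes and 17.5% for MHC class I. It reached 24.1% for chemokines, 33.3% for NF-kappaB genes, 32.95% for general microglial markers and 47.7% for homeostatic ones. It reached 62.2% for immediate early genes, 65.5% for the KLF family, 48.3% for cholesterol synthesis and 82.1% for immature astrocyte genes. Among decreases it stood at only 3.91% for matrix and 9.25% for mitosis genes. These shares rest on 1 library and have no test.

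The lists also differed in how they moved with the level of microglial markers. When the mean log2 CPM of the 20 general microglial markers was added to the fit as a covariate, no gene passed the test (471 at an unadjusted p under 0.05), and 980 of the 1098 genes kept their direction. Relative to the ctrl-2 mean the score was 1.41, 1.06, 1.47 and 0.43 in cKO;S/+ and 0.092, 0.56, -0.23 and -0.42 in ctrl-2, with ctrl-2 replicate 5 above cKO;S/+ replicate 14. Of the 20 markers in the score 19 were themselves called higher, so score and genotype are tied in these libraries. Lists of microglial genes follow such a score by their make-up, and the cells that gave rise to each change were not tested. In this fit the median of the interferon-stimulated list was 0.052, that of MHC class I 0.092, that of lysosomal genes 0.0049, that of chemokines 0.31, that of NF-kappaB genes 0.29 and that of disease-associated genes 0.20, all closer to 0 than before. The median of the glucocorticoid list was 0.23 against 0.23 without the covariate, that of immature astrocyte genes -0.21 against -0.18, and that of cholesterol synthesis -0.28 against -0.46. In the glucocorticoid and immature astrocyte lists 11 of 15 and 15 of 20 members were not called, so these medians do not describe the called members. Among single genes, the fold change of Edn1 in this fit was 1.14, that of Acacb 0.98, that of Per1 0.56, that of Gad1 1.47, that of Tnc -0.76 and that of Ednrb -0.40, none of which passed. That of Hk2 was -0.055 and that of Klf10, a KLF factor called higher at 1.13 without the covariate, -0.017.

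**Figure D5:**
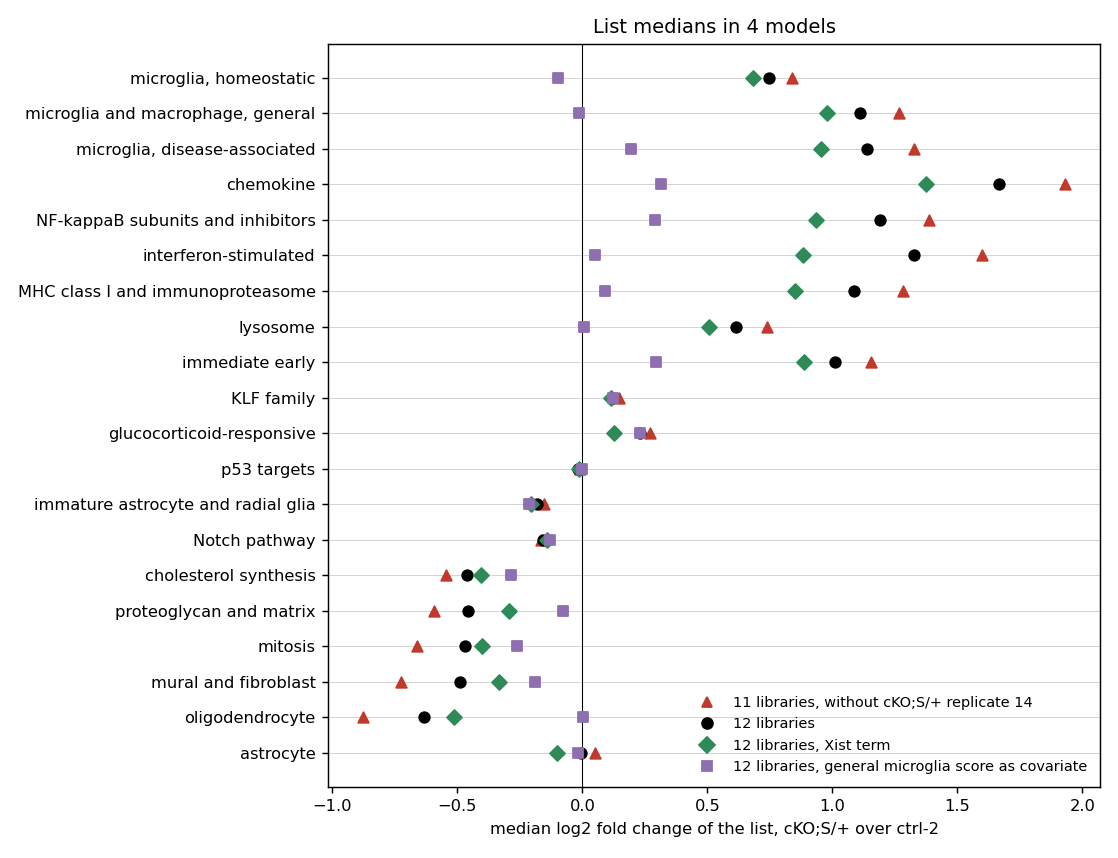
Median log2 fold change of 20 gene lists, cKO;S/+ over ctrl-2, in 4 models: without cKO;S/+ replicate 14 (triangles), with all 12 libraries (circles), with a term for Xist (diamonds) and with the general microglial score as a covariate (squares). The medians of the microglial and immune lists lie closer to 0 with the covariate than in the other models. Those of the KLF, Notch and immature astrocyte lists lie close together in the 4 models. Most members of these lists were not called (7 of 12, 16 of 17 and 15 of 20), so their medians do not describe the called members.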

How the data were processed

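RNA of ACSA-2-sorted cortical astrocytes was sequenced from total RNA libraries. The submitters' processing notes name STAR 2.7.10a, FastQC 0.11.5, edgeR 4.2.1 and, from Subread 2.0.3, featureCounts, with the build mm10. For the annotation and the strand setting nothing was given in the sources used here, and values of overlapping, antisense or near-identical genes are uncertain. The authors deposited raw read counts for 15089 genes per library, with no normalization, beside log2 CPM, fold changes and p-values of their own comparisons that were not used. Some genes are not reported here. Reads of the ribosomal RNA gene Rn45s made up 7.45% to 8.39% of the counts in the 8 libraries.

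The counts were modelled in R 4.3.3 by edgeR 4.0.16, with limma 3.58.1 for an alternative. filterByExpr (minimum count 10) removed 0 genes, libraries were scaled by TMM, and 1 quasi-likelihood model by genotype was fitted to all 12 libraries (9 residual degrees of freedom, prior 3.78), with two-sided tests, Benjamini-Hochberg adjustment over all genes and a threshold of 0.05. The model was tested on data made with known differences before use. CPM use the scaled library sizes, and log2 CPM for lists a prior count of 2. Libraries with more than 10 CPM of Xist were taken as female. p-values measure the spread between these mice. The members of the lists and the lists themselves were chosen with earlier results of these data known.

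Genes named are Nmnat2, Sarm1 and sex-linked genes, the 12 largest changes in each direction among called genes without overlap and with at least 5 CPM in the higher group, the 8 most abundant such genes, up to 4 called members per list by adjusted p, and the 2 most abundant members of lists with fewer than 2 calls, of which some are left out of the text. Gfap was added outside this rule as the astrocyte marker with the highest fold change. Positions and promoters are those of RefSeq for GRCm38.p6, matched by Entrez identifier for 14106 genes. Alternatives were upper-quartile and RLE scaling, other filters (none, or 2 CPM in 4 libraries), edgeR's likelihood ratio test, limma-voom with and without sample weights, DESeq2 1.42.0, the 8 libraries alone, each library left out, and terms for Xist and for microglial or oligodendrocyte markers. Figures were drawn with matplotlib in Python.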

Additional observations from a re-analysis of the deposited data

Results flagged for a closer look

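In 17 of 268 groups of 4 libraries of a named gene, 1 library lay far from the other 3 against the range of the group. Chance gives about 1 in 20 groups, and genes are not independent of each other. In 7 cases it was cKO;S/+ replicate 14. For genes that fell it was the highest of the cKO;S/+ libraries, with 29.4 CPM for Nmnat2 (others 20.3 to 20.9), 6.18 for the transporter gene Slc22a6 (2.75 to 3.17), 20.3 for Adam12 (7.57 to 8.47), 5.63 for Capn11 (2.69 to 2.90), 14.02 for Adamts12 (5.55 to 6.40) and 8.83 for Tbx18 (5.52 to 5.89). For Csf1, which rose, it was the lowest at 145 CPM, with the other cKO;S/+ libraries at 296 to 319.

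In 4 cases ctrl-2 replicate 5 was the highest control of an immune gene. It had 225 CPM of Cd83 (others 96.0 to 116), 38.3 of Ccl4 (16.1 to 19.6), 27.5 of Irf1 (19.1 to 19.7) and 11.6 of Naip5 (7.09 to 7.25). This library also had the highest general microglial score of the controls. The same library was the lowest control for Cdh2 at 285 CPM (295 to 297). Replicate 4 stood apart for Cd74, the highest at 22.5 CPM (14.4 to 14.9), and for Hapln1, the lowest at 229 CPM (289 to 296). Replicate 7 was the highest control for Adam12 at 26.7 CPM (23.1 to 23.7) and the lowest for Adamts12 at 14.3 CPM (17.42 to 17.99), and replicate 6 the highest for Ncan at 1285 CPM (1065 to 1086).

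In 6 of 58 lists and 1 of 134 genes the libraries of males and of females lay apart in opposite directions between genotypes, a difference that was not tested and that sets 1 cKO;S/+ library of a male against 3 controls, and 3 cKO;S/+ libraries of females against 1 control. By chance alone 1 library often lies beyond 3 others, so such patterns can arise without an effect of sex. Most of the genes were also named because they were called in 1 direction. The mean log2 CPM of the 16 neuronal markers differed by 0.93 in males and by -0.81 in females. That of the astrocyte markers differed by -0.21 in males and by 0.10 in females, and that of matrix genes by 0.0078 and by -0.67. SREBP and lipoprotein uptake genes differed by -0.059 in males and by 0.065 in females, clock genes by -0.055 and by 0.084, and the endothelin system by 0.036 and by -0.17. Sarm1 differed by -0.77 in males and by 0.75 in females.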

How the results depend on the processing

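Each of the 1098 called genes that a setting tested kept its direction under every alternative except the general microglial covariate, with which 980 did (2 called genes were not tested in the fit of the 8 libraries alone, and 1059 passed the filter of 2 CPM). Against 890 higher and 208 lower genes, upper-quartile scaling called 805 and 371, the likelihood ratio test 1219 and 380, DESeq2 1306 and 559, limma-voom with sample weights 1920 and 1207, and the 8 libraries alone 562 and 106. The test called 0 and 0 with the Xist term, with the homeostatic or the general microglial covariate and with the oligodendrocyte covariate, where 2652, 973, 471 and 2371 genes had an unadjusted p under 0.05. With the Xist term and without replicate 14 it called 697 and 160. Leaving out each library in turn gave 0 to 1604 higher and 0 to 974 lower genes. The cause of these shifts was not tested. RLE scaling, limma-voom and both filters kept each count within 1.5 times.

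Of the 130 called genes named here, DESeq2, the likelihood ratio test and limma-voom with sample weights called all, limma-voom alone left out 11, the 8 libraries alone 24, and the Xist term without replicate 14 34. None of the 130 kept its call with the Xist term, either microglial covariate or the oligodendrocyte covariate. The same held without cKO;S/+ replicate 8 or without ctrl-2 replicate 4, 6 or 7. Without cKO;S/+ replicate 10, 18 kept it, and without cKO;S/+ replicate 9, 83 did. Directions turned for few. With the general microglial covariate Csf1r had a log2 fold change of -0.011, Klf10 -0.017, Hk2 -0.055, Slc16a3 -0.0052 and Havcr2 -0.10, and Slc1a2, which was not called, 0.0027. Sarm1, which was not called, ranged from -0.28 to 0.087 over the fits that left out 1 library, and had 0.59 with the Xist term and without replicate 14, 0.091 with the Xist term, 0.0073 with the oligodendrocyte covariate, 0.038 without cKO;S/+ replicate 14 and 0.087 without ctrl-2 replicate 4. Xist, which was not called and is the term itself in 2 of these fits, had -0.23 with its term and without replicate 14, -0.30 with its term and -4.01 with the oligodendrocyte covariate. No paired analysis was possible because the genotypes share no replicate number. With 4 mice per genotype and 1 male in cKO;S/+, genotype and sex can be separated only through single libraries.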

Other observations

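Some lists not described above changed in few members. Of 17 clock genes 2 rose, Per1 and the repressor gene Bhlhe41, which had 118, 116, 133 and 80.6 CPM in cKO;S/+ and 68.1, 80.2, 75.8 and 73.1 CPM in ctrl-2, with replicate 14 level with ctrl-2 replicate 5 (log2 fold change 0.59, SE 0.15, adjusted p = 0.0349). Of 13 genes of lipid droplets and lipolysis only Lpl rose, a share near the 5.9% of all genes, and Lpl is also on the disease-associated list. None of 19 glutamate and GABA genes was called by the quasi-likelihood test (4 at an unadjusted p under 0.05, and 3 lower by DESeq2), and none of 16 potassium, water and gap junction genes (1, and 0 by DESeq2). Of 57 lists with at least 3 measured members, 13 had no call. Lower genes were longer, with a median exonic length of 4209 bases, against 2958 bases for all genes tested and 2810.5 bases for higher genes, a difference that was not tested.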
